A study of Mus musculus with 6 samples.

Results

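The non-receptor protein tyrosine phosphatases (PTPs) described here are enzymes of the cell interior that take phosphate off tyrosine residues of other proteins. The members were the rows of the count table named Ptpn1, Ptpn2, Ptpn6, Ptpn9, Ptpn11, Ptpn12, Ptpn13, Ptpn14, Ptpn18 or Ptpn23, and all 10 were found among the 22116 rows with a gene name. The cells were 4T1, a mouse mammary carcinoma line that serves as a model of triple-negative breast cancer. They received either the vehicle DMSO or 10 µM P3FI-90, an inhibitor of the histone demethylase KDM3B, and RNA was taken after 24 h for sequencing of 3 libraries per group. Both groups were this 1 line in culture, no other allele or agent was labelled, and a single dose and time were compared. The labels do not say whether the libraries came from separate cultures, so p-values measure the spread between these libraries, which may be technical.

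As background, these phosphatases share a catalytic domain with a reactive cysteine and differ in the domains beside it, which set where each enzyme sits and what it meets. Ptpn6 encodes SHP1 and Ptpn11 encodes SHP2, whose tandem SH2 domains bind phosphotyrosines on receptors and adaptors. SHP1 is best known as an inhibitor of signaling in blood cells and is also made by many epithelial cells, whereas SHP2 is widespread and promotes RAS signaling downstream of growth factor receptors. PTP1B and TCPTP act on JAK kinases, STATs and receptor kinases, the PEST group acts on cytoskeletal and SRC family proteins, and the FERM group sits at the cell cortex. H3K9me2, the histone mark that KDM3B removes, is associated with silent genes.

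A library held between 31327094 and 37395732 counts on named genes. Counts are given here as normalized counts, which put every library on the mean effective library size after edgeR's TMM normalization, whose factors were 0.927 to 0.930 in DMSO and 1.076 to 1.078 in P3FI-90. A gene is called higher or lower in P3FI-90 where edgeR's quasi-likelihood test gave a Benjamini-Hochberg adjusted p under 0.05 over the 12288 genes tested. By this rule 79.3% of the genes tested were called, 39.9% higher and 39.4% lower, so a call alone says little about any member. All 10 mammary epithelial markers examined were present, and their summed level was 4613 to 4872 CPM (counts scaled to a fixed library total) in DMSO and 1998 to 2099 in P3FI-90, with all 10 lower. With libraries scaled by total counts in place of TMM, 9 of the 10 were called lower. The part of these markers in the differences below was not tested. Of 18 leukocyte markers 7 were at 0 in every library, among them Cd3g, Ms4a1, Nkg7, Adgre1, Laptm5 and Tyrobp, and the summed level of the list was 12.57 to 15.18 CPM in DMSO and 12.23 to 15.21 in P3FI-90. The summed fibroblast markers were at 40.24 to 42.44 CPM in DMSO and 28.55 to 31.25 in P3FI-90, and the endothelial ones at 77.09 to 87.94 and 73.07 to 75.09. Most of each sum was 1 gene. Mean normalized counts in DMSO and P3FI-90 were 1355 and 958 for Pdgfra, 2914 and 2541 for Eng, and 382 and 330 for the leukocyte marker Cd68. The next fibroblast and endothelial markers in DMSO were Col1a1 at 70 and Tie1 at 14. Lum, Thy1 and Vwf were at 0 in every library. Kdm3b had a log2 fold change of 0.13 (SE 0.043, edgeR quasi-likelihood adjusted p = 0.0169). Its transcript level is no measure of inhibition of the enzyme. The call was lost without DMSO replicate 1 (adjusted p = 0.0627), P3FI-90 replicate 2 (adjusted p = 0.0588) or P3FI-90 replicate 3 (adjusted p = 0.0518), and under upper-quartile scaling (adjusted p = 0.0801). Its paralogs Kdm3a and Jmjd1c were higher, at 1.36 (SE 0.040) and 0.96 (SE 0.036).

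All 10 members passed the filter on low counts. By size and direction they fell into a group of large falls, Ptpn6 and Ptpn18, a group of large rises, Ptpn14 and Ptpn23, a group of small called differences, Ptpn1, Ptpn2, Ptpn9 and Ptpn11, and Ptpn12 and Ptpn13, which were not called. In all, 4 members were higher and 4 lower, 8 of 10 against 79.3% of all genes tested. The median log2 fold change of the 10 was −0.0020, beside 0.0125 for all genes tested. The groups did not overlap for 8 of the 10, against 81.2% of all genes, with 4 members wholly higher, against 41%, and 4 wholly lower, against 40.2%. Of the 10 members 4 were called with a log2 fold change beyond 1 in either direction. Of all genes tested 23.3% were, 12.7% higher and 10.6% lower. The shares of the members called and not overlapping were thus near the background, and the description below rests on the sizes. In bulk RNA, fewer cells that make a transcript and less of it per cell cannot be told apart.

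**Figure D1:**
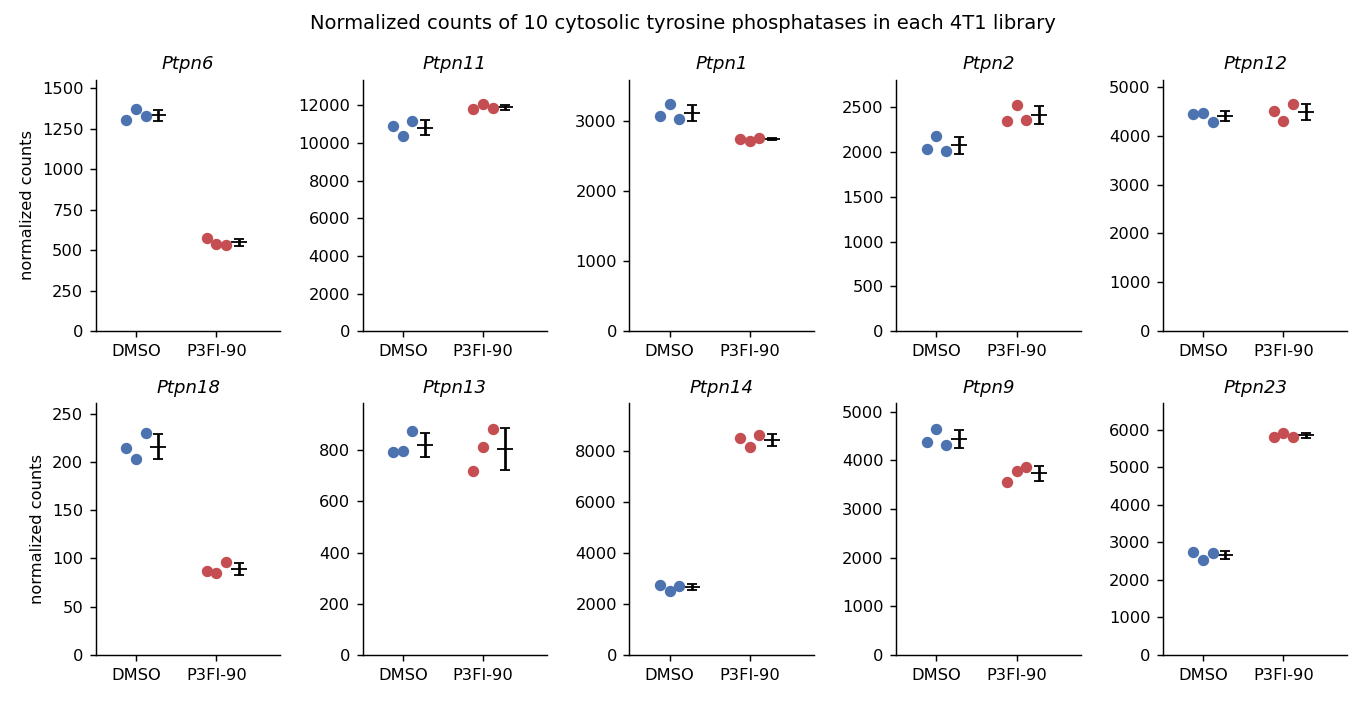
Normalized counts (vertical axis, from 0, a separate scale per gene) of the 10 phosphatases in each library; points are the 3 DMSO and 3 P3FI-90 libraries, and the bar beside them is the mean ± SD. Ptpn6 and Ptpn18 lie far lower and Ptpn14 and Ptpn23 far higher in all P3FI-90 libraries, and the groups of Ptpn12 and Ptpn13 overlap.

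The promoter windows of the 4 members with the large differences are shown because these members moved in pairs, Ptpn6 and Ptpn18 down and Ptpn14 and Ptpn23 up. The windows are RefSeq sequences of mouse build GRCm38.p6, from 250 bases before to 50 bases after the annotated start, written 5′ to 3′ along the gene. The submitters' processing notes name build GRCm39 for the counts, and no position was carried over. Capitals mark matches, on either strand, to the motifs searched. These were the CCAAT box, the GC box core GGGCGG, the TATA box TATAAA, the E-box CACGTG, the cAMP response element TGACGTCA, the STAT-type palindrome TTCNNNGAA and the interferon-stimulated response element. The windows are Ptpn6 at chr6:124738660-124738959 on the minus strand, Ptpn18 at chr1:34459496-34459795 on the plus strand, Ptpn14 at chr1:189728018-189728317 on the plus strand and Ptpn23 at chr9:110408161-110408460 on the minus strand.
Ptpn6: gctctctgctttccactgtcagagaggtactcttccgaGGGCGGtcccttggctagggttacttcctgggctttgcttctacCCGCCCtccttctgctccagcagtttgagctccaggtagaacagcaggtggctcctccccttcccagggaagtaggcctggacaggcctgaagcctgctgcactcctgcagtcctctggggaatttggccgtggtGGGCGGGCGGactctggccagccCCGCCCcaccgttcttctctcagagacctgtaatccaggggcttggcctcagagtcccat
Ptpn18: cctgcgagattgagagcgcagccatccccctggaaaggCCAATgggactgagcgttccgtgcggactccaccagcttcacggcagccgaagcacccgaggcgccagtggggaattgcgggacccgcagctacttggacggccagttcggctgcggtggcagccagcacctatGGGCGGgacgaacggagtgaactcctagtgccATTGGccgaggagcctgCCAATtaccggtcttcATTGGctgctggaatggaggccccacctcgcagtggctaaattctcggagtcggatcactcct
Ptpn14: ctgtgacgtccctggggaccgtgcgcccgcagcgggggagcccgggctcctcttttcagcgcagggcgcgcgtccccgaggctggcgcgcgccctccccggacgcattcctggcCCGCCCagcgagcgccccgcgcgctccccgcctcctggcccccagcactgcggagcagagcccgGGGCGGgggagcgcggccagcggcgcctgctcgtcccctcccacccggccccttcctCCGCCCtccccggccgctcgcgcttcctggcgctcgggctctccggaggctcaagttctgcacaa
Ptpn23: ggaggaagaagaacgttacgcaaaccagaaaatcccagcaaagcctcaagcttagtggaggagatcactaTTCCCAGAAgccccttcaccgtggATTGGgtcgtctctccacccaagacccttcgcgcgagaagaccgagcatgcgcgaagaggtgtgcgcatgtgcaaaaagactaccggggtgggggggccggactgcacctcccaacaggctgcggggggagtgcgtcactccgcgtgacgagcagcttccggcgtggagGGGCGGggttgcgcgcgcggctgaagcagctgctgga
In these windows GGGCGG, the core of the GC box, occurred 5 times for Ptpn6, 3 times for Ptpn14 and 1 time each for Ptpn18 and Ptpn23, with overlapping matches counted. This motif was present in 35.7% of the 32851 windows of the RefSeq table. It was also in the windows of all other members with an entry. It occurred 4 times for Ptpn11 and 2 times each for Ptpn1, Ptpn9 and Ptpn13. Its presence thus did not set apart the members with large differences. CCAAT occurred 4 times for Ptpn18 and 1 time for Ptpn23 and was present in 37.4% of all windows, and TTCNNNGAA, a STAT-type palindrome, occurred 1 time for Ptpn23 and was present in 8.3%. The letters of the TATA box, the E-box, the cAMP response element and the interferon-stimulated response element are not in these 4 windows and were present in 13.6%, 7.15%, 1.79% and 3.44% of all windows. Among the other members, the Ptpn13 window held 1 CCAAT and the Ptpn11 window 1 cAMP response element. The Ptpn6 window stood apart in CpG content: it held 8 CpG dinucleotides, an observed-over-expected ratio of 0.282, whereas the windows of the other 7 members with an entry had ratios of 0.74 to 1.15 and the median of all windows was 0.384. Its GC content was 61.7%, against a median of 52.7% for all windows and 62.3% to 78.3% for the other members. A match is a description of the sequence and not evidence of binding. The table gives 1 window for Ptpn6, whereas the gene is known to have alternative promoters, used in epithelial and in blood cells, which counts per gene do not separate. Of the 10 members 8 had a window. Ptpn2 and Ptpn12 had no entry.

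Among the SHP phosphatases, Ptpn6 (ENSMUSG00000004266) fell and Ptpn11 (ENSMUSG00000043733) rose slightly. Ptpn6 had 1300.4, 1368 and 1329 normalized counts in the DMSO libraries and 575, 536 and 533 in the P3FI-90 libraries. The highest P3FI-90 library was thus below the lowest DMSO library by more than the range of either group. The mean fell from 1332 ± 34.0 (SD, n = 3) to 548 ± 23.2, which is 41.1% of the DMSO level, a log2 fold change of −1.28 (SE 0.067, 95% CI −1.43 to −1.14, edgeR quasi-likelihood adjusted p = 3.31e-10). Among the 12288 genes tested it was 757th from the lowest fold change, at percentile 6.16. An exact two-sided permutation test on the 6 values gave p = 0.1, the smallest that 3 libraries against 3 can give. The raw counts behind these values were 1136 to 1302 in DMSO and 544 to 614 in P3FI-90. Of the exon bases of Ptpn6, 6.96% overlap the antisense gene Gm20531, which has no row in the table, and since the strand setting of the counting is not given in the sources used here, its reads cannot be told apart from those of Ptpn6 in that stretch.

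Ptpn11 had the highest level per length of the members, as given further on, with 10926, 10395 and 11164 normalized counts in DMSO and 11824, 12070.3 and 11842 in P3FI-90. Every P3FI-90 library was above every DMSO library, but only by a small margin. Its log2 fold change was 0.14 (SE 0.034, 95% CI 0.06 to 0.21, edgeR quasi-likelihood adjusted p = 0.00218). The ratio of the SHP transcripts within a library does not depend on how libraries are scaled. For every 100 counts of Ptpn11 there were 11.9, 13.2 and 11.9 counts of Ptpn6 in DMSO and 4.86, 4.44 and 4.50 in P3FI-90. The groups did not overlap, and the log2 ratio differed by −1.42 (SE 0.063, exact permutation test, two-sided, p = 0.1). This ratio and the like ratios of other members are of counts per gene and not per length.

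The genes whose course over the 6 libraries was nearest to that of Ptpn6 were Kif22, Psmb3, Dtwd1, Septin10 and Tkt, by Euclidean distance between log2 CPM values centred on each gene's mean. Their distances were 0.046, 0.055, 0.065, 0.068 and 0.082, against a median of 1.65 over 12287 genes. They encode a chromosome-binding kinesin, a proteasome subunit, a tRNA-modifying enzyme, a septin and transketolase of the pentose phosphate pathway, and their log2 fold changes ran from −1.31 to −1.23. None of the other members was among the nearest 100, and the closest, Ptpn18, stood at place 235. With 6 libraries in 2 groups this distance mostly ranks genes by the size of their fold change.

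Docking receptors with inhibitory tyrosine motifs bring SHP1 and SHP2 to the membrane, and most of them belong to blood cells. Of 15 such receptors 3 were tested, 1 of them higher, 1 lower and 1 not called. Sirpa, the receptor for CD47, was the one lower gene: it had 579, 530 and 567 normalized counts in DMSO and 290.1, 285 and 320.3 in P3FI-90, a log2 fold change of −0.91 (SE 0.099, edgeR quasi-likelihood adjusted p = 1.15e-06). Pecam1, the adhesion receptor CD31, had 0, 0 and 13 raw counts in DMSO and 20, 17 and 27 in P3FI-90 and was called higher (edgeR quasi-likelihood adjusted p = 0.0355). That call was lost without DMSO replicate 1 (adjusted p = 0.121), DMSO replicate 2 (0.111), P3FI-90 replicate 1 (0.0667) or P3FI-90 replicate 3 (0.105), with DESeq2 (0.268) and with no filter on low counts (0.0878). With at least 10 counts required in every library, or with counts halved, Pecam1 was not tested. The other 12 were below the filter, with at most 10 counts in any library. Among them Mpig6b, an inhibitory receptor of platelets, had 5, 7 and 10 counts in DMSO and 0 in every P3FI-90 library, at least 8.39-fold lower with 3 counts as the floor and at least 4.20-fold with 6. Ceacam1 went the other way, at 0 in every DMSO library and at 0, 4 and 7 counts in P3FI-90. Pooled over the libraries, its ratio to a floor of 3 counts was 3.2 and to a floor of 6 counts 1.6, but its groups overlapped at 0. Of the 15 receptors 7 were at 0 in every DMSO library and 5 in every P3FI-90 library, with 2 at 0 in both groups.

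SHP1 and SHP2 act on SRC family and JAK kinases, so these were taken as the next circle of genes. Of 8 SRC, CSK and SYK family kinases tested, 3 were higher and 4 lower, and the list median was 0.11 on the log2 scale. Lyn, a SRC family kinase that phosphorylates the docking sites of SHP1, had a log2 fold change of −1.31 (SE 0.079), close in size to that of Ptpn6, and Csk, which holds SRC kinases inactive, of −0.55 (SE 0.046). Src and Fyn rose by 0.55 (SE 0.059) and 0.87 (SE 0.099). The kinases thus moved in both directions. Syk, a kinase of immune receptors, was at 0 in the DMSO libraries and had 5, 5 and 2 counts in P3FI-90.

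Of 10 JAK and STAT genes tested, 2 were higher and 6 lower, and the list median was −0.19. Scaling by total counts made this 4 higher and 3 lower, with a median of 0.02. Stat2, a transcription factor of interferon signaling, was higher, at 0.91 (SE 0.074). Stat6, which acts downstream of IL-4, and the kinase gene Jak2 were lower, at −0.81 (SE 0.043) and −0.51 (SE 0.041). These 3 kept their calls under each scaling tried.

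Of 15 SHP2 adaptors and RAS activation genes, 7 were higher, 5 lower and 3 not called, with a median of 0.09. Under scaling by total counts 9 were higher and 3 lower. Sos2, an exchange factor that loads RAS with GTP, had a log2 fold change of 0.76 (SE 0.050), and Frs2, the FGF receptor adaptor that binds SHP2, of 0.70 (SE 0.047). Nras and the adaptor gene Shc1 fell by 0.50 (SE 0.043) and 0.49 (SE 0.041) on the log2 scale.

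The STING pathway, which senses cytosolic DNA, was included because the study concerns innate immune responses, which SHP1 is known to restrain. Of its 5 tested genes 1 was higher and 4 lower, with a median of −0.45. Irf3, the transcription factor at the end of the pathway, had 1446, 1344 and 1467 normalized counts in DMSO and 559, 571 and 641 in P3FI-90, a log2 fold change of −1.27 (SE 0.072). The kinase gene Ikbke was at −1.12 (SE 0.053), while Tbk1, the main kinase of STING, was at 0.39 (SE 0.050). Of the other 2 lower genes, Sting1 was at −0.45, and Cgas at −0.17, close to the threshold (edgeR quasi-likelihood adjusted p = 0.0476). The call of Cgas was lost under 13 of 17 alternatives (adjusted p 0.018 to 0.568 over all of them), DESeq2 and 4 of 6 runs with a library left out among them, and its log2 fold change turned to 0.05 under scaling by total counts. The count of 4 lower genes was then 3. Ifnb1, the interferon gene at the end of this route, was at 0 in every DMSO library and had 8, 15 and 6 counts in P3FI-90. Its level was thus at least 8.45-fold higher with 3 counts over the DMSO group as the floor, and at least 4.22-fold with 6, which applies if each read pair added its mates separately to the table.

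**Figure D2:**
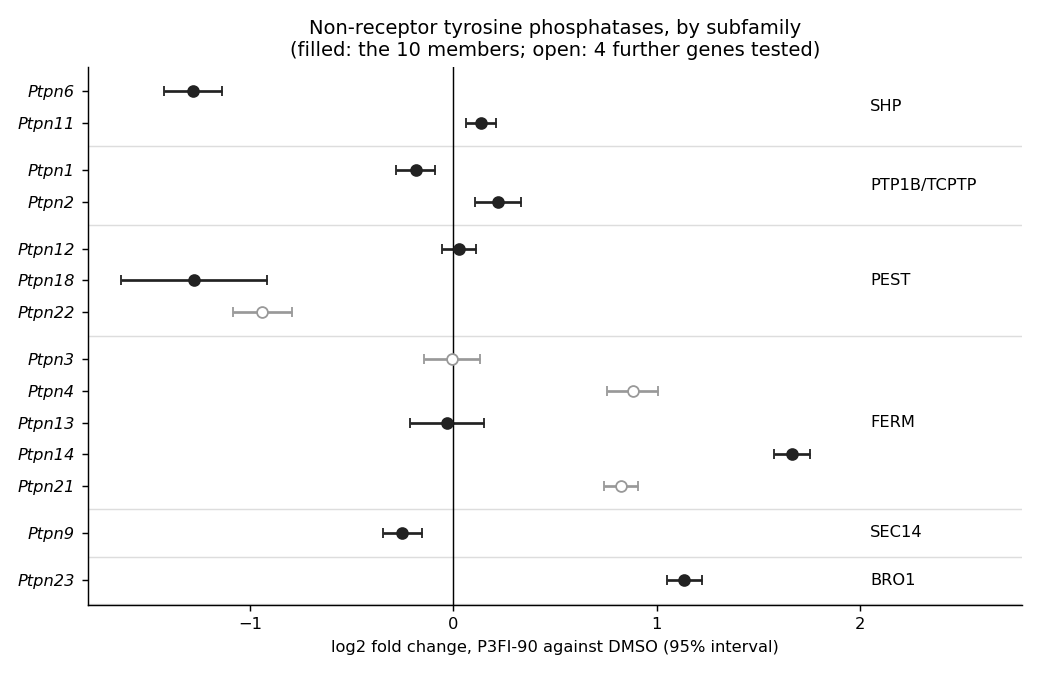
Log2 fold changes of P3FI-90 against DMSO with 95% intervals (horizontal axis) for 14 non-receptor PTPs sorted by subfamily; filled points are the 10 members and open points 4 further genes tested. Members of 1 subfamily differ: Ptpn6 is at −1.28 and Ptpn11 at 0.14, Ptpn18 at −1.28 and Ptpn12 at 0.03, Ptpn14 at 1.67 and Ptpn13 at −0.03.

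Ptpn1 encodes PTP1B, which is anchored in the endoplasmic reticulum and acts on the insulin receptor, and Ptpn2 encodes TCPTP, its close relative with nuclear and reticular forms, which acts on JAK kinases and STATs. Both changed by small amounts in opposite directions. Ptpn1 had 3067, 3239 and 3033 normalized counts in DMSO and 2742, 2723 and 2752 in P3FI-90, a log2 fold change of −0.18 (SE 0.045, edgeR quasi-likelihood adjusted p = 0.00172), which turned to 0.03 (adjusted p = 0.554) with libraries scaled by total counts. Ptpn2 had 2030.0, 2179.9 and 2012 in DMSO and 2351, 2525 and 2359 in P3FI-90, a log2 fold change of 0.22 (SE 0.053, edgeR quasi-likelihood adjusted p = 0.00175). The groups of neither gene overlapped. Within a library there were 66.2, 67.3 and 66.3 counts of Ptpn2 for every 100 of Ptpn1 in DMSO and 85.8, 92.7 and 85.7 in P3FI-90. This ratio, which no scaling changes, differed by 0.40 on the log2 scale (SE 0.038, exact permutation test, two-sided, p = 0.1).

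The PEST phosphatases carry proline-rich tails that bind cytoskeletal adaptors. Ptpn12, PTP-PEST, which acts on the focal adhesion protein p130CAS, had 4445, 4474 and 4289 normalized counts in DMSO and 4517, 4302 and 4644 in P3FI-90. The groups overlapped, and the log2 fold change of 0.03 had a 95% CI of −0.06 to 0.11 (edgeR quasi-likelihood adjusted p = 0.528). Ptpn18, whose product acts on HER2 and SRC family kinases, had the lowest counts of the members, with 215, 204 and 229.6 normalized counts in DMSO and 87.0, 84.5 and 96.0 in P3FI-90. Its mean fell from 216 ± 13.1 to 89.2 ± 6.04 (SD, n = 3), to 41.3% of the DMSO level, a log2 fold change of −1.28 (SE 0.17, 95% CI −1.64 to −0.92, edgeR quasi-likelihood adjusted p = 6.96e-06). That is the same size as for Ptpn6, with an interval that is wider at the lower count. The opposite-strand gene Gm28417 overlaps 7.58% of the exon bases of Ptpn18, with the same limit as for Ptpn6.

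Ptpn22, the remaining PEST phosphatase, known from lymphocytes, is not a member and had 1923, 2065 and 1883 normalized counts in DMSO and 1056, 1081 and 919 in P3FI-90. Its log2 fold change was −0.94 (SE 0.067, edgeR quasi-likelihood adjusted p = 1.06e-08). Within a library there were 4.83, 4.55 and 5.35 counts of Ptpn18 for every 100 of Ptpn12 in DMSO and 1.93, 1.96 and 2.07 in P3FI-90, a difference of −1.30 on the log2 scale (SE 0.075, exact permutation test, two-sided, p = 0.1). The partners and substrates of PTP-PEST, a list of focal adhesion and actin regulators, had 7 of 9 tested genes higher and 2 lower, and the list median was 0.31. Wasl, the N-WASP activator of actin branching, and Ptk2b, the kinase PYK2, rose by 1.60 (SE 0.039) and 1.30 (SE 0.056). Ptk2, the focal adhesion kinase, and Pstpip1, an adaptor for PTP-PEST, were lower, at −0.24 (SE 0.036) and −0.29 (SE 0.11), and neither remained called under scaling by total counts. Pstpip1 also lost its call without DMSO replicate 1 (adjusted p = 0.0732), DMSO replicate 3 (0.0554) or P3FI-90 replicate 2 (0.0941).

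The FERM phosphatases bind the inner face of the plasma membrane and cell junctions. Ptpn14, whose product binds YAP and holds it in the cytoplasm, had the largest difference among the members. It had 2755, 2522 and 2702 normalized counts in DMSO and 8525, 8173 and 8629 in P3FI-90, with a wide gap between the groups. The mean rose from 2659 ± 122 to 8443 ± 239 (SD, n = 3), a 3.17-fold rise and a log2 fold change of 1.67 (SE 0.042, 95% CI 1.58 to 1.76, edgeR quasi-likelihood adjusted p = 2.01e-13). Among all genes tested it stood at percentile 94.2 of the fold changes, 713th from the highest. The antisense gene Gm26574 overlaps 1.32% of its exon bases.

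Ptpn13, a large scaffold phosphatase with FERM and PDZ domains that binds FAS, did not share this. It had 794, 796 and 877 normalized counts in DMSO and 720.5, 813 and 882 in P3FI-90, so the groups overlapped. The log2 fold change was −0.03 (95% CI −0.21 to 0.15, edgeR quasi-likelihood adjusted p = 0.737). For every 100 counts of Ptpn13 there were 347, 317 and 308 of Ptpn14 in DMSO and 1183, 1006 and 979 in P3FI-90, a difference of 1.70 on the log2 scale (SE 0.10, exact permutation test, two-sided, p = 0.1). Of the FERM phosphatases outside the 10, Ptpn4 and Ptpn21 were higher, at log2 fold changes of 0.88 (SE 0.057) and 0.82 (SE 0.039), and Ptpn3 was not called at −0.01. Under scaling by total counts Ptpn3 turned to 0.21 and was called higher (edgeR quasi-likelihood adjusted p = 0.00844).

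The Hippo pathway restrains YAP and is the pathway in which PTPN14 is best known. Of its 16 genes 7 were higher, 6 lower and 3 not called, with a median of 0.06, near that of all genes. Lats1, a kinase that inactivates YAP, rose by 1.01 (SE 0.043), and Tead1, a DNA-binding partner of YAP, by 0.68 (SE 0.036). Yap1 itself had 7259.8, 7014 and 7398 normalized counts in DMSO and 4065, 4021 and 4198 in P3FI-90, a log2 fold change of −0.82 (SE 0.036), and Tead2 was at −1.64 (SE 0.060). Genes of the TEAD family thus moved both ways. Under scaling by total counts 10 were higher and 5 lower.

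Ptpn9 and Ptpn23 each stand alone by domain. Ptpn9, MEG2, has a SEC14 lipid-binding domain and sits on secretory vesicles. It had 4370, 4644 and 4308 normalized counts in DMSO and 3563, 3775 and 3855 in P3FI-90, without overlap. Its log2 fold change of −0.25 (SE 0.044, edgeR quasi-likelihood adjusted p = 0.000116) was reduced to −0.04 (adjusted p = 0.456) under scaling by total counts. The antisense gene Gm10658 overlaps 3.65% of its exon bases.

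Ptpn23, HD-PTP, has a BRO1 domain and works with the ESCRT complexes that sort ubiquitinated receptors into endosomes. It had 2743, 2532 and 2707 normalized counts in DMSO and 5818, 5926 and 5811 in P3FI-90. All P3FI-90 libraries were above all DMSO libraries by a wide gap. The mean rose from 2661 ± 113 to 5852 ± 64.6 (SD, n = 3), a 2.20-fold rise and a log2 fold change of 1.14 (SE 0.040, 95% CI 1.05 to 1.22, edgeR quasi-likelihood adjusted p = 6.13e-12), at percentile 89.3 of all genes.

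Of 23 ESCRT genes 12 were higher, 7 lower and 4 not called, and the list median was 0.20. Under scaling by total counts 16 were higher and 5 lower. The higher genes included Vps37b of ESCRT-I at 1.79 (SE 0.062) and Stam of ESCRT-0 at 0.99 (SE 0.037). The lower ones included Vps36 of ESCRT-II at −1.26 (SE 0.047) and Mvb12a of ESCRT-I at −1.32 (SE 0.057). Subunits of 1 complex thus moved apart. Hgs, the ESCRT-0 partner of Stam, is outside the naming rule and was chosen after its values were seen as the denominator for Ptpn23. There were 84.1, 81.2 and 85.8 counts of Ptpn23 for every 100 of Hgs in DMSO and 88.1, 89.9 and 94.3 in P3FI-90. The log2 ratio differed by 0.12 (SE 0.037, exact permutation test, two-sided, p = 0.1). Since Hgs was chosen with its rise known, the ratio is a description and its p tests nothing about the pair.

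**Figure D3:**
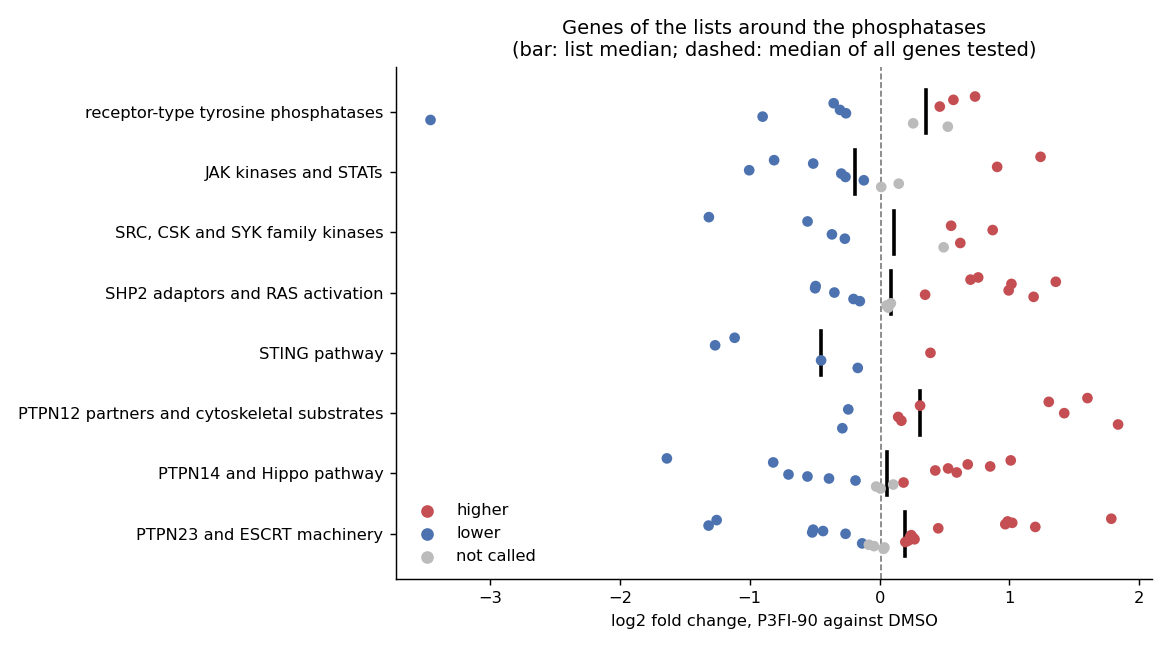
Log2 fold changes of P3FI-90 against DMSO (horizontal axis) for tested genes of 8 lists around the phosphatases; red points are higher, blue lower and grey not called, black bars are list medians and the dashed line the median of all genes tested (0.0125). Genes at 0 in a whole group are not drawn; every list holds points on both sides of 0.

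Levels between genes were compared per length, as reads per kilobase of merged exons after scaling for depth (RPKM). In DMSO the order from the highest was Ptpn11, Ptpn12, Ptpn9, Ptpn2, Ptpn1, Ptpn6, Ptpn23, Ptpn14, Ptpn13 and Ptpn18. The levels ran from 41.2 ± 1.5 RPKM for Ptpn11 to 0.948 ± 0.058 for Ptpn18 (SD, n = 3), and only the neighbours Ptpn6 and Ptpn23 had overlapping ranges. Ptpn6 was at 13.6 ± 0.35 RPKM, a middle level among the members. In P3FI-90 Ptpn6 was at 5.57 ± 0.24 and had moved from place 6 to place 8, while Ptpn23 had moved from place 7 to place 3, at 29.7 ± 0.33. Ptpn14 rose from 5.65 ± 0.26 to 17.9 ± 0.51 RPKM and from place 8 to place 6. In P3FI-90 only Ptpn9 and Ptpn2 overlapped, at 22.8 ± 0.92 and 22.0 ± 0.89.

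As a share of the summed RPKM of the 10, Ptpn6 went from 7.76% to 2.84%, Ptpn14 from 3.24% to 9.14% and Ptpn23 from 7.73% to 15.1%. The summed level of the 10 was 922.5 to 930.9 CPM in DMSO and 1161 to 1180 in P3FI-90. Among these phosphatases the SHP1 transcript thus took a smaller share and those of PTPN14 and HD-PTP larger ones. The length used matters for Ptpn18: with the longest coding transcript of 1559 bases in place of 6492 bases of merged exons its DMSO level was 3.95 ± 0.24 RPKM, above that of Ptpn13 at 2.96 ± 0.17. By that length Ptpn6 lay above Ptpn23 in DMSO without overlap.

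**Figure D4:**
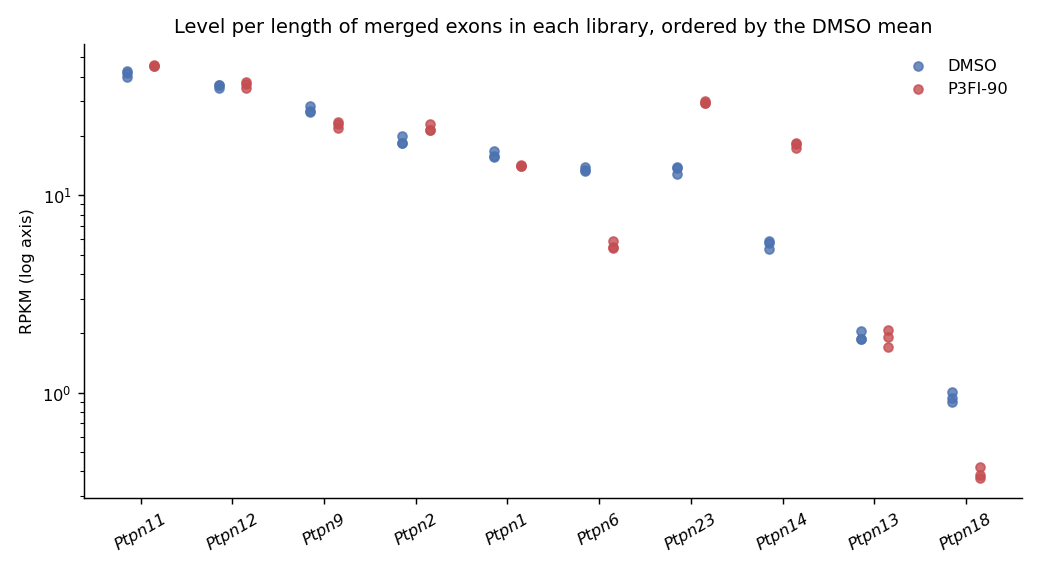
Level of each phosphatase per kilobase of merged exons (RPKM, log axis) in the 3 DMSO and 3 P3FI-90 libraries, ordered by the DMSO mean. Ptpn11 and Ptpn12 are the highest in both groups, Ptpn6 drops below Ptpn14, and Ptpn23 rises above Ptpn9, Ptpn2 and Ptpn1.

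Of the 7 other non-receptor PTPs, 4 were tested, with the values of Ptpn3, Ptpn4, Ptpn21 and Ptpn22 given above. Ptpn7, a phosphatase of MAP kinases in blood cells, had 11, 20 and 4 counts in DMSO and 2, 0 and 0 in P3FI-90, a 20-fold ratio of DMSO over P3FI-90 with a 95% counting interval of 5.14 to 172. Ptpn5 had 2 to 12 counts in each library, and Ptpn20 had 4 counts in 1 P3FI-90 library and 0 in the others. These 3 were too low for the test.

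The receptor-type PTPs span the membrane and offer a family for comparison. Of 21, 12 were tested, 5 of them higher, 5 lower and 2 not called, and 5 were at 0 in every library. Their median log2 fold change was 0.36, the same with genes at 0 in DMSO set to their lower bounds. Ptprk, a cadherin-linked phosphatase, and Ptprj rose by 0.74 (SE 0.039) and 0.57 (SE 0.060), and Ptprs and Ptprf of the LAR group were lower, at −0.35 (SE 0.039) and −0.30 (SE 0.039). Ptprt was at 0 in all DMSO libraries and had 60, 58 and 49 counts in P3FI-90, at least 48.7-fold higher against a floor of 3 counts and at least 24.3-fold against 6. Ptprq, Ptprn2 and Ptprg were likewise at 0 in DMSO and at least 9.03-, 11.1- and 6.70-fold higher against the floor of 3 counts. Among the 10 members no transcript was at 0 in any library. Ptprc, the leukocyte phosphatase CD45, had 23, 0 and 3 counts in DMSO and 26, 6 and 10 in P3FI-90, and its groups overlapped. Of the 4 leukocyte markers tested, Csf1r was higher and Coro1a lower, while the ranges of the summed list overlapped between the groups.

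The choice of library scaling decided the calls of 3 members. With total counts in place of TMM the median log2 fold change of all genes moved from 0.0125 to 0.227 and 62.9% rather than 50.3% of all calls were higher. Ptpn1 and Ptpn9 then lost their calls, Ptpn1 with a turned sign, and Ptpn12 became higher at 0.24 (edgeR quasi-likelihood adjusted p = 6.37e-05). Relative to the median of all genes under that scaling, Ptpn6 was at −1.29, Ptpn18 at −1.29, Ptpn14 at 1.65, Ptpn23 at 1.12, Ptpn2 at 0.21, Ptpn11 at 0.12, Ptpn1 at −0.20 and Ptpn9 at −0.26. The 20 most counted genes held 7.98% to 8.22% of the counts in DMSO and 5.19% to 5.35% in P3FI-90, and the part of this in the scaling was not tested.

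**Figure D5:**
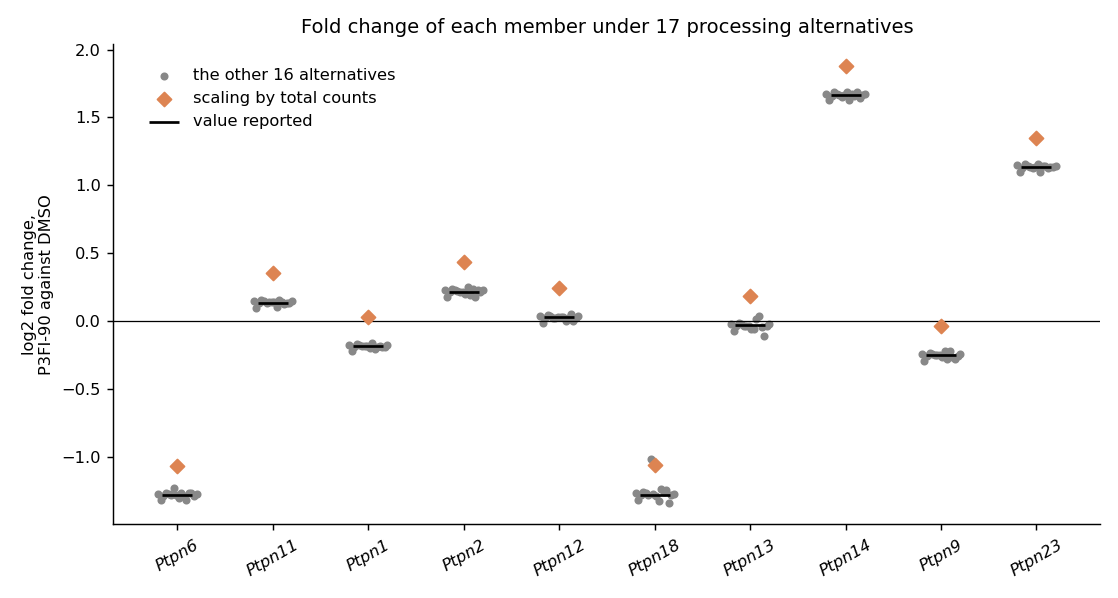
Log2 fold change (vertical axis) of each phosphatase as reported (black bar), with libraries scaled by total counts (orange diamond) and under 16 other alternatives (grey points). Ptpn6, Ptpn18, Ptpn14 and Ptpn23 stay beyond 1 in size throughout, and scaling by total counts lifts all 10 and takes Ptpn1 and Ptpn13 above 0.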

How the data were processed

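The authors deposited 1 table of read counts per gene for 3 DMSO and 3 P3FI-90 libraries, whole numbers with no normalization. Per the labels and the paper, mRNA-seq libraries were run on a NovaSeq, and the submitters' processing notes name CASAVA, HISAT2, StringTie and build GRCm39. The counting tool, its annotation and its strand setting are not given in the sources used here. Rows of 285 assembled transcripts without a gene name (0.483% to 0.556% of a library's counts) were left out. More genes had a count of 2 than of 1 in every library, so both mates of a pair may have been counted, and floors and intervals cover counting error only.

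Genes were filtered with filterByExpr, normalized by TMM and tested with edgeR 4.0.16 (quasi-likelihood, two-sided, Benjamini-Hochberg over 12288 genes) in R 4.3.3 on all 6 libraries without covariates. The study names limma for this step, and limma 3.58.1 and DESeq2 1.42.0 were used as alternatives. The common biological coefficient of variation was 0.0648. SE is the absolute log2 fold change over the square root of F, and intervals use the t distribution. Lengths and overlaps came from GENCODE M21 (21995 identifiers matched), and promoters from RefSeq GRCm38.p6.

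The members, the lists and the alternatives were chosen with earlier results of these data known. The members are all named. From each list the genes named are those called with the 2 smallest p in each direction and those at 0 in a whole group, of which low ones are given as counts. Also named are the 5 profiles nearest to Ptpn6 and Kdm3b. Ptpn3, Sting1, Cgas, Ptpn5, Ptpn7, Ptprc, Hgs, Cd68, Col1a1 and Tie1 were named after their values were seen. Other scalings, other filters on low counts, other tests, a replicate block and each library left out in turn were tried. Keeping the assembled transcripts, halving the counts and a fold threshold were added after seeing the data.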

Additional observations from a re-analysis of the deposited data

How the results depend on the processing

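Over 17 alternatives, 162 of 170 values of the 10 members kept their direction and their side of the threshold, and 6 changed sign. With libraries scaled by total counts Ptpn1 turned to 0.030 and Ptpn13 to 0.18, Ptpn9 lost its call at −0.04, Ptpn12 gained one at 0.24, and the members called became 5 higher and 2 lower. Of all genes tested, 50.3% were then called higher and 29.6% lower. The general shift of 0.227 in all genes goes with this alternative. Upper-quartile scaling turned Ptpn12 to −0.011. Leaving out each library in turn gave −0.0022 to 0.055 for Ptpn12 (below 0 without P3FI-90 replicate 3, at −0.0022) and −0.11 to 0.041 for Ptpn13 (above 0 without DMSO replicate 3, at 0.013, and without P3FI-90 replicate 1, at 0.041), neither of which was called with a library left out. Ptpn6 stayed between −1.32 and −1.07 over all alternatives, and between −1.32 and −1.27 with a library left out. With a log2 fold change beyond 0.5 required, added after seeing the data, 2 members were higher and 2 lower. These were the members already beyond 1, and no share of all genes was taken at 0.5. Among 50 genes outside the members, without those named after their values were seen, 831 of 847 values kept their call. Eng, an endothelial marker, turned to 0.016 under total counts. Ptpn3, Cgas and Cd68, named after their values were seen, turned sign under total counts as well.

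The groups share replicate numbers, but the deviations of same-numbered libraries from their group means correlated by −0.0214, 0.015 and 0.00491, so the numbers were not treated as pairs. With the replicate number as a block the log2 fold change of Ptpn6 was −1.28, 4 members were higher and 4 lower, and no call of a member changed. Over all genes the block gave 4802 higher and 4722 lower, against 4908 and 4841 without it. Of the members, Ptpn18 had the lowest counts and the widest interval, and halving the counts left its log2 fold change at −1.27. Between libraries of 1 group the chi-square per gene was 5.49 to 8.57, above sampling noise, so no library was counted as a repeat of another.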
